A study of Mus musculus with 4 samples.

Results

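Neutrophils carry their weapons in granules that are filled in a fixed order as the cell matures in the bone marrow. The serine proteases and myeloperoxidase of the primary granules are transcribed in promyelocytes, the antimicrobial proteins of the secondary granules in the later precursors, and many surface receptors and gelatinase last. The transcription factors Gfi1 and C/EBP epsilon drive this programme, and cultures of mouse marrow grown with GM-CSF are known to hold granulocytes and macrophages beside dendritic cells. The genes described here are 33 named genes of neutrophils and their precursors, in 4 sets: 4 primary granule genes, 3 granulocyte precursor genes, 12 secondary granule genes and 14 mature neutrophil genes. They were chosen by symbol, with earlier results of these data known. A gene was measured through the array probes whose transcript identifier maps to its symbol. Of the 33, 32 had a probe, among 23451 genes with a value on the arrays. The expression of the remaining gene, Olfm4, is not analysed here, and only its promoter is counted.

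The study measured total RNA of bone marrow-derived dendritic cells of wild-type male C57BL/6J mice on 4 single-colour arrays, 1 for each condition, to compare LPS, LA and their combination. All cells came from femur marrow, grown for 6 days with GM-CSF (10 ng/ml) in MEM that held 10% FBS. The 4 groups were LPS+LA (100 ng/ml LPS with 20 mM L-(+)-LA for 4 h), LPS alone (100 ng/ml, 4 h), LA alone (20 mM, 4 h) and medium, for which no time was given. LPS is the bacterial cell wall component that activates TLR4, the series title speaks of lactate, no pH was given for LA, and neither the number of mice nor a sort of the cells was stated.

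With 1 array per group there was no spread between cultures and no test, so every difference below is one between 2 arrays, and a difference of 1 log2 unit (2-fold) is a size threshold only. A level is the log2 of the processed signal over that array's 75th percentile, and levels of different probes are not comparable with each other. The share of non-control spots well above background lay between 56.5% (LPS) and 64.1% (LA). The SD between the 10 spots of a repeated probe had a median of 0.051 to 0.054 log2 units by array, and the median error that the scanner software gave for a difference between 2 arrays of a member was 0.204. Different probes of 1 gene had differences that varied more, with a median SD of 0.20 to 0.31 log2 units by comparison. Of the dendritic cell markers, Itgax and H2-Ab1 were well above background on all 4 arrays and Xcr1 on none. All 32 measured neutrophil genes were well above background on all 4 arrays.

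Most neutrophil genes had higher levels in cells given LA together with LPS than in cells given LPS alone, with the widest such differences at Cxcr2, Mmp9 and Elane. In LPS+LA cells against LPS cells, 14 of the 32 genes were at least 2-fold higher and 2 were at least 2-fold lower, where 11.5% and 12.5% of all 13631 genes measured in that comparison were. The median difference of the 32 genes was 0.78 log2 units, against 0.00 for all genes, and 23 of the 32 lay above 0, against 50.2% of all genes. The 14 higher genes were Elane, Mpo, Prtn3, Ms4a3, Cebpe, Ltf, Cd177, Fcnb, Pglyrp1, S100a8, Retnlg, Cxcr2, Mmp9 and Padi4, and the 2 lower genes were Fpr1 and Fpr2. By array, the LPS+LA array was the highest of the 4 for 19 of the 32 genes (22.9% of all genes) and the lowest for 3 (23.8%). The LPS+LA and LA arrays lay close, with a median difference of 0.15 log2 units over the 32 genes, under the software error of 0.204. The LPS array was the lowest for 17 (37.5%) and the highest for 8 (34.7%). Over the settings the LPS array was lowest for 16 to 25 genes, with 32.1% to 59.9% of all genes. In bulk RNA such as this, fewer cells of a type and less RNA per cell cannot be told apart.

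**Figure D1:**
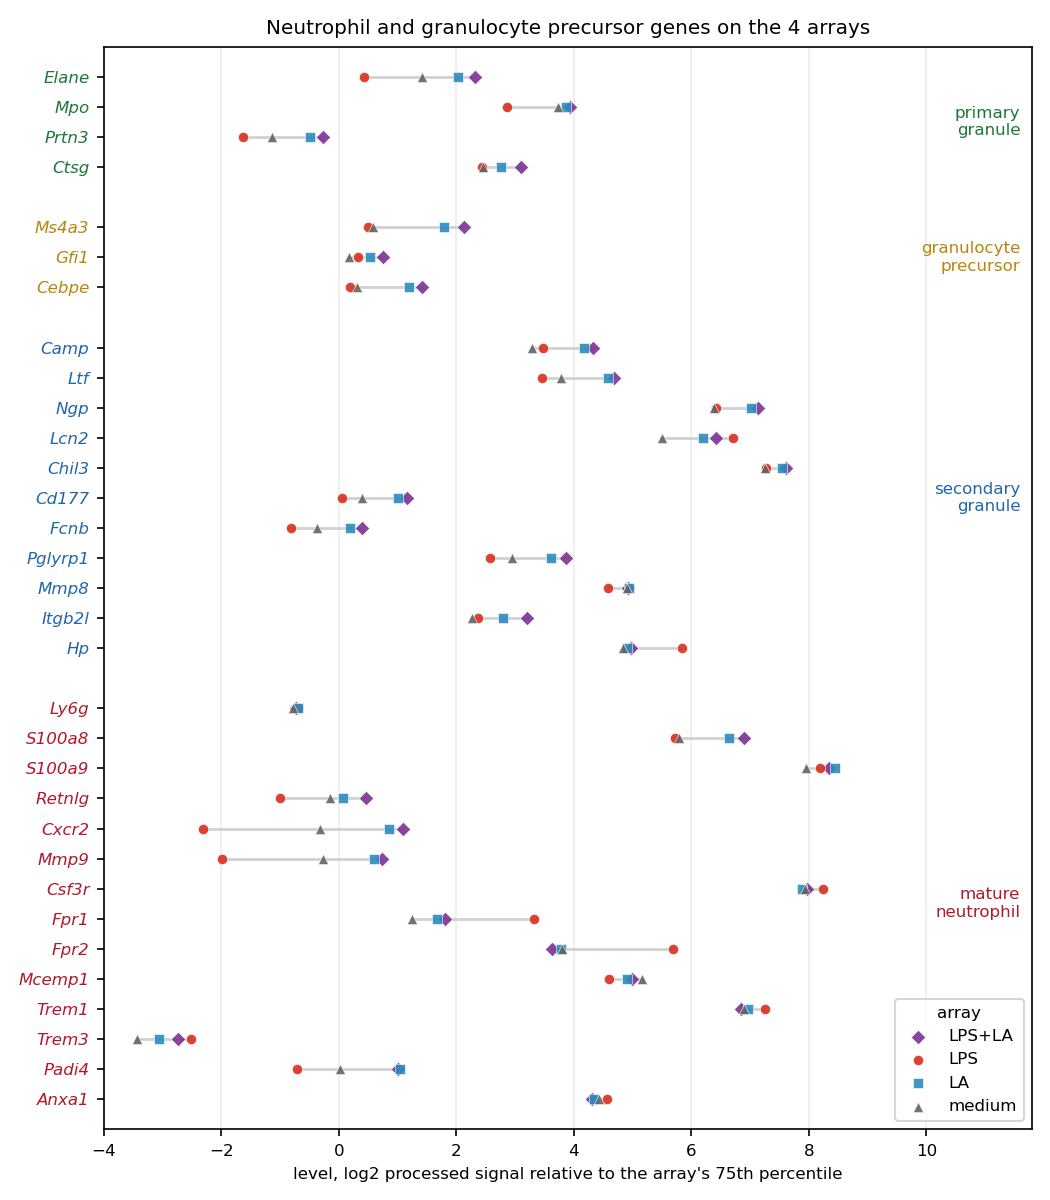
Level of each of the 32 measured neutrophil genes on the LPS+LA, LPS, LA and medium arrays (log2 of the processed signal over the array's 75th percentile), by gene set, with 1 point per array. The LPS array lies lowest of the 4 for 17 of the 32 genes, among them Cxcr2 at -2.31 and Mmp9 at -1.99, and highest for 8, among them Fpr1 at 3.31 and Fpr2 at 5.68.

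In the other comparisons fewer genes were at least 2-fold apart, both among the 32 and among all genes. The median for LPS+LA against medium (0.72) nevertheless came close to the 0.78 for LPS+LA against LPS. In LPS cells against medium, 4 genes were at least 2-fold higher (8.14% of all genes were) and 2 were at least 2-fold lower (7.50% of all genes), with a median of -0.04. In LA cells against medium, 3 were higher (3.12% of all genes) and 0 lower (3.33%), yet 28 of the 32 lay above 0, against 52.3% of all genes, and their median was 0.51, against 0.02. In LPS+LA cells against medium, 5 were higher (3.0% of all genes) and 0 lower (3.98%), with a median of 0.72 and again 28 of 32 above 0 (51.3% of all genes). In LPS+LA cells against LA cells, 0 genes reached 2-fold in either direction (0.906% of all genes were higher and 1.50% lower), the median was 0.15, and 25 of the 32 lay above 0 (47.1% of all genes). The counts moved with the processing, and the share of all genes moved too. With the authors' deposited values, 2 genes were higher (5.54% of all genes) and 5 lower (12.8%) for LPS against medium, 7 were higher (4.24%) for LA against medium and 13 (4.59%) for LPS+LA against medium. With normexp background correction, 0 were higher for LA against medium (0.502%) and 3 for LPS+LA against medium (0.558%). These comparisons share arrays: LPS+LA against LPS and LPS against medium both use the LPS array, so a low LPS array moves them in opposite directions.

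**Figure D2:**
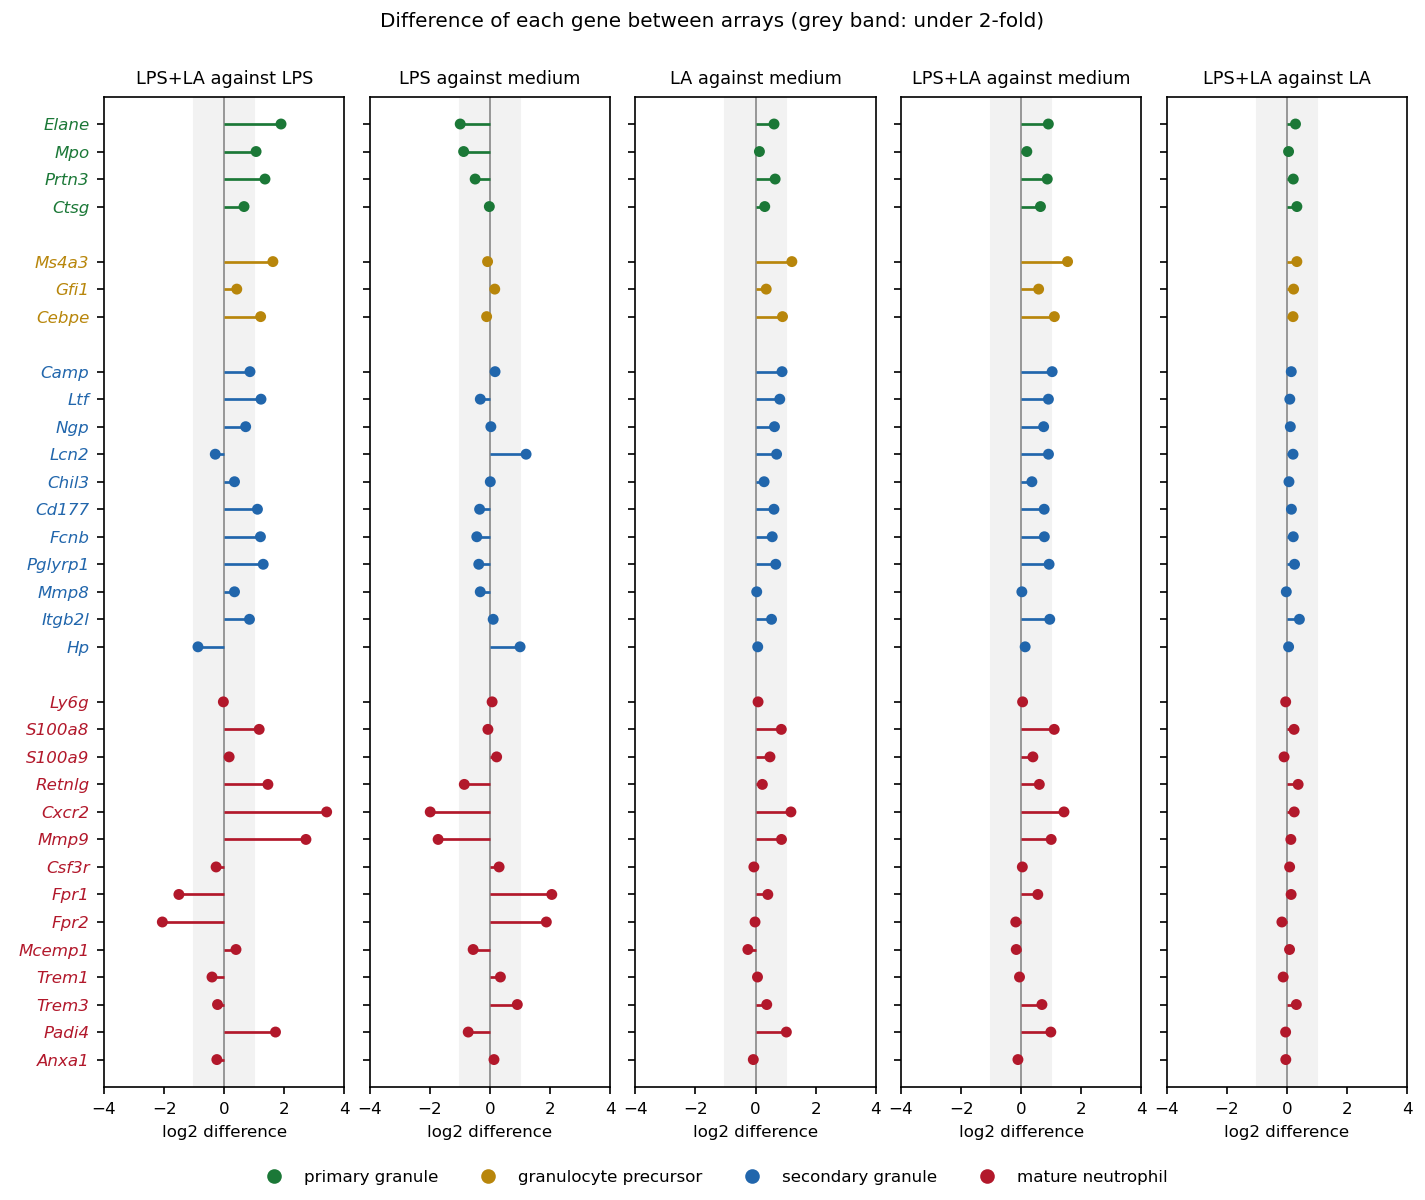
Log2 difference of each measured neutrophil gene in 5 comparisons, 1 point per gene and comparison, with the grey band marking differences under 2-fold. In LPS+LA against LPS, 14 genes lie above the band and 2 below it, and in LPS+LA against LA all 32 lie within it.

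The primary granule genes were lowest on the LPS array in all 4 cases, but for Ctsg the gap to medium was under the error between spots, and median scaling put LPS above medium by 0.04 log2 units. Elane, neutrophil elastase, had a level of 2.32 in LPS+LA cells, 0.43 in LPS cells, 2.03 in LA cells and 1.41 in medium. Mpo, which makes hypochlorous acid from hydrogen peroxide, had 3.93 in LPS+LA cells, 2.86 in LPS cells, 3.87 in LA cells and 3.74 in medium. The LPS array was low for both genes, and the LA arrays exceeded medium clearly for Elane and by less than the software error for Mpo. Prtn3, the serine protease proteinase 3, had -0.27 in LPS+LA cells, -1.63 in LPS cells, -0.49 in LA cells and -1.14 in medium. Ctsg, cathepsin G, had 3.10 in LPS+LA cells, 2.44 in LPS cells, 2.77 in LA cells and 2.46 in medium. The LPS and medium arrays differed by -0.02 log2 units for Ctsg, less than the error between spots, and the other 3 lay below medium by more.

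Against LPS cells, LPS+LA cells had Elane 3.71-fold higher, Prtn3 2.56-fold higher and Mpo 2.09-fold higher, and Ctsg differed by 0.66 log2 units. The median of the 4 genes was 1.21 log2 units. In LPS cells against medium the same genes had a median of -0.68, with Elane at -0.99 and Mpo at -0.87, and in LA cells against medium a median of 0.46. Summed on the linear scale, the 4 levels came to 29.6 in LPS+LA cells, 14.4 in LPS cells, 26.2 in LA cells and 21.9 in medium. Such a sum is weighted to the brightest probe, here that of Mpo. Prtn3 and Elane are neighbours on chromosome 10 with no protein-coding gene between them in the annotation.

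The promoters of the primary granule genes are shown because Elane, Prtn3 and Mpo had a low LPS array, with Ctsg as the gene of the set whose LPS array lay at the level of medium. The windows run from 250 bases before to 50 after the annotated start, 5′ to 3′ on the gene's strand, from RefSeq (GRCm38.p6). They lie at chr10:79886062-79886361 (Elane, + strand), chr10:79879417-79879716 (Prtn3, + strand), chr11:87793534-87793833 (Mpo, + strand) and chr14:56102525-56102824 (Ctsg, - strand). Capitals mark matches, on either strand, to GAGGAA, the purine-rich core that the ETS factor PU.1 is known to bind, to TTNNGNAA, the form that C/EBP factors are known to bind, and to TATAAA.
Elane: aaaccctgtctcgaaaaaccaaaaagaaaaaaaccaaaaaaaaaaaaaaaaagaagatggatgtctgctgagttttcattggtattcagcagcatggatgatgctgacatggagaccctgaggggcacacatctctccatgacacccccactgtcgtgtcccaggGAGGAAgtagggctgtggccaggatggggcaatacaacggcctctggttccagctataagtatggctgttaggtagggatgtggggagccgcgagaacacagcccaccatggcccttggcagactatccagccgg
Prtn3: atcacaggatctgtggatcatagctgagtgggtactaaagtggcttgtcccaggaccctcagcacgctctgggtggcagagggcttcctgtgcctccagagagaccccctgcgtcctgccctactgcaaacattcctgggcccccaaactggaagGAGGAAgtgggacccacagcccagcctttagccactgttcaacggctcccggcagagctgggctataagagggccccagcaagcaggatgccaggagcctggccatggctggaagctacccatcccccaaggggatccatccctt
Mpo: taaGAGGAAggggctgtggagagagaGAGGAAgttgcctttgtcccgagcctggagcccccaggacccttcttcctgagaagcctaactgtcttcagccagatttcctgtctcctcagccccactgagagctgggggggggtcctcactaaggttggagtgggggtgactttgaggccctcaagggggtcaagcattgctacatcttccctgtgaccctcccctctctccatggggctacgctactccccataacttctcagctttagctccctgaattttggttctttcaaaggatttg
Ctsg: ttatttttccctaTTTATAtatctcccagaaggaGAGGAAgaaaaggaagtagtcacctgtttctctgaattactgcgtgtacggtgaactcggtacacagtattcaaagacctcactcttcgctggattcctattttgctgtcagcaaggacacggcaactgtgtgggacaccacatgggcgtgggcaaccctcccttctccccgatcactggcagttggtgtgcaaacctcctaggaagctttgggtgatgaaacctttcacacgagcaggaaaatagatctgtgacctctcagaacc
All 4 windows hold GAGGAA, starting 85 bases before the start in Elane, 95 in Prtn3, 247 and 224 in Mpo and 216 in Ctsg, and none holds TTNNGNAA. Ctsg also holds TATAAA on the other strand, beginning 237 bases before the start. No matches overlapped in the windows printed here.

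The table held 31 windows of 29 of the 33 genes, Olfm4 included, among 32851 windows in all; Gfi1 and Ly6g had 2 each, and those of Ly6g overlap. GAGGAA was in 20 of the 31 windows (64.5%), against 28.3% of all windows, and TTNNGNAA in 20 of the 31 (64.5%), against 40.7%. By set, TTNNGNAA was in 0 of 4 primary granule windows, 2 of 3 precursor windows, 9 of 11 secondary granule windows and 9 of 13 mature neutrophil windows. TATAAA was in 12 of the 31 windows (38.7%), against 13.6% of all windows, and 8 of those 12 were of mature neutrophil genes. A match describes letters in a window and is not a binding site.

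The granulocyte precursor genes had higher levels on both LA arrays than on both arrays without LA. Ms4a3, a membrane protein of granulocyte and monocyte progenitors, had 2.12 in LPS+LA cells, 0.50 in LPS cells, 1.79 in LA cells and 0.58 in medium. Cebpe, the C/EBP factor required for secondary granules, had 1.41 in LPS+LA cells, 0.19 in LPS cells, 1.20 in LA cells and 0.30 in medium. Gfi1, a zinc finger repressor required for neutrophil formation, had 0.75 in LPS+LA cells, 0.33 in LPS cells, 0.53 in LA cells and 0.17 in medium. The order of the arrays was the same for Ms4a3 and Cebpe, while for Gfi1 the LPS array lay above medium by 0.16, less than the software error of 0.204.

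Ms4a3 was 3.07-fold higher in LPS+LA cells than in LPS cells and 2.31-fold higher in LA cells than in medium, the widest difference with LA alone among the 32 genes. Cebpe was 2.32-fold higher in LPS+LA cells than in LPS cells and differed by 0.90 log2 units in LA cells against medium. Gfi1 differed by 0.42 and 0.36 log2 units in these comparisons, and its second, dimmer probe by 0.20 and 0.08. LPS alone left all 3 within 0.16 log2 units of medium, but over the settings the difference reached -0.34 for Cebpe and -0.31 for Ms4a3.

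The secondary granule genes were mostly higher with LA, and Lcn2 and Hp stood apart as genes higher with LPS. Lcn2 was also higher in LA cells than in medium, by 0.70 log2 units. Ltf, the iron-binding protein lactoferrin, had 4.69 in LPS+LA cells, 3.46 in LPS cells, 4.59 in LA cells and 3.78 in medium. Pglyrp1, a peptidoglycan recognition protein, had 3.87 in LPS+LA cells, 2.57 in LPS cells, 3.61 in LA cells and 2.94 in medium. Camp, the precursor of the antimicrobial peptide cathelicidin, had 4.32 in LPS+LA cells, 3.47 in LPS cells, 4.18 in LA cells and 3.29 in medium. All 3 had both LA arrays above both others, with the LPS array below medium for Ltf and Pglyrp1 and above it by 0.17 for Camp (-0.14 to 0.24 over the settings).

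Cd177, a surface glycoprotein also stored in these granules, had 1.16 in LPS+LA cells, 0.05 in LPS cells, 1.01 in LA cells and 0.40 in medium. Fcnb, the lectin ficolin B, had 0.40 in LPS+LA cells, -0.81 in LPS cells, 0.18 in LA cells and -0.37 in medium. Both were lowest on the LPS array. Ngp, the neutrophilic granule protein, had 7.13 in LPS+LA cells, 6.41 in LPS cells, 7.01 in LA cells and 6.38 in medium. Itgb2l, an integrin beta 2-like chain, had 3.21 in LPS+LA cells, 2.37 in LPS cells, 2.79 in LA cells and 2.26 in medium. For Ngp and Itgb2l the arrays without LA lay close together and below the LA arrays, and Chil3, the chitinase-like protein Ym1, spanned only 7.25 to 7.61 over the 4 arrays. Mmp8, neutrophil collagenase, spanned 4.58 in LPS cells to 4.94 in LA cells.

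Lcn2, which binds bacterial siderophores and is also made by macrophages, had 6.41 in LPS+LA cells, 6.71 in LPS cells, 6.20 in LA cells and 5.50 in medium. Hp, haptoglobin, had 4.97 in LPS+LA cells, 5.84 in LPS cells, 4.91 in LA cells and 4.84 in medium. Both were highest on the LPS array, and the 3 other arrays of Hp lay within 0.13 log2 units of each other. In LPS cells against medium, Lcn2 was 2.31-fold higher and Hp 2.01-fold higher, and a second Lcn2 probe gave 1.40 log2 units; Hp passed 2-fold in 6 of 9 settings and Lcn2 in 7. With LPS+LA against LPS, Lcn2 differed by -0.30 (-0.41 to 0.21 over the settings) and Hp by -0.87 log2 units.

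The set as a whole had a median difference of 0.84 log2 units in LPS+LA cells against LPS cells, and 4 of its 11 genes passed 2-fold upward and 0 downward. These were Pglyrp1 (2.46-fold), Ltf (2.34-fold), Fcnb (2.31-fold) and Cd177 (2.15-fold). In LA cells against medium the median was 0.61, with Camp at 0.88 and Ltf at 0.81, and in LPS cells against medium it was 0.01. Against medium, LPS+LA cells had Camp 2.04-fold higher.

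The Ltf promoter is shown because it holds both C/EBP-type and PU.1-type letters, and its gene encodes a secondary granule protein that depends on C/EBP epsilon. The window lies at chr9:111019042-111019341 (+ strand), with the same capitals as above.
Ltf: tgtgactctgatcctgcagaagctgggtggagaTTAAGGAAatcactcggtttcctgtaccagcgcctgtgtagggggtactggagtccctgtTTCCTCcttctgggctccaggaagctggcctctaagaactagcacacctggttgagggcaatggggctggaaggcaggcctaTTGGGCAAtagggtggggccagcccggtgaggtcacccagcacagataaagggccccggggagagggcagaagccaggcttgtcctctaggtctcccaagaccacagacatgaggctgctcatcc
It holds TTNNGNAA at 217 and 75 bases before the start and GAGGAA on the other strand at 157 bases before it.

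The mature neutrophil genes spread widely in both directions. Against LPS cells, 5 of 14 in LPS+LA cells were at least 2-fold higher (11.5% of all genes were), 2 were at least 2-fold lower (12.5%, a share near that of the set) and the median was 0.07 log2 units, with differences from -2.06 (Fpr2) to 3.41 (Cxcr2). The higher genes were Cxcr2, Mmp9, Padi4, Retnlg and S100a8. Under the alternative settings the median of this set ranged from -0.04 to 0.49.

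Cxcr2, the receptor for the chemokines CXCL1 and CXCL2, had 1.10 in LPS+LA cells, -2.31 in LPS cells, 0.85 in LA cells and -0.33 in medium. Mmp9, gelatinase B, had 0.73 in LPS+LA cells, -1.99 in LPS cells, 0.59 in LA cells and -0.27 in medium. Both genes were lowest on the LPS array by a wide margin and highest on the LPS+LA array. Cxcr2 was 10.6-fold higher in LPS+LA cells than in LPS cells, the widest difference of the 32 genes, and Mmp9 was 6.59-fold higher. Over the settings these differences ran from 2.28 to 3.83 log2 units for Cxcr2 and from 1.62 to 3.14 for Mmp9. A second Mmp9 probe was not well above background on the LPS array. Against medium, LPS cells had Cxcr2 3.96-fold lower and Mmp9 3.30-fold lower, but with normexp background correction the differences were -1.13 and -0.90 log2 units, the second under 2-fold. LA cells had Cxcr2 2.26-fold higher and Mmp9 higher by 0.86 log2 units. The LA difference with LPS exceeded the LA difference without LPS by 2.23 log2 units for Cxcr2 and by 1.86 for Mmp9.

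The ligands of CXCR2 were measured on the same arrays. Cxcl2 had a level of -1.58 in LPS+LA cells, 3.05 in LPS cells, -1.83 in LA cells and -1.36 in medium. The ligands named here were chosen after their values were seen, and a link to the level of Cxcr2 was not tested. Of all genes, 34.7% were highest on the LPS array and 37.5% were lowest on it. The level of Cxcl2 was high on the LPS array alone, the array on which Cxcr2 was lowest. Cxcl1, Cxcl3 and Cxcl5 were also highest on the LPS array, at 2.95, 1.91 and -0.36. Cxcl1 was not well above background on the LPS+LA and LA arrays, nor was Cxcl3 on the LA array. In LPS cells against medium 8 of 8 measured genes of a list of neutrophil chemoattractants and cytokines were at least 2-fold higher (8.14% of all genes). In LPS+LA cells against LPS cells 7 of 7 were at least 2-fold lower (12.5% of all genes).

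Padi4, the enzyme that citrullinates histones in neutrophil extracellular traps, had 0.998 in LPS+LA cells, -0.71 in LPS cells, 1.04 in LA cells and 0.01 in medium. Retnlg, resistin-like gamma, had 0.45 in LPS+LA cells, -1.001 in LPS cells, 0.08 in LA cells and -0.15 in medium. S100a8, a subunit of the calcium-binding protein calprotectin, had 6.89 in LPS+LA cells, 5.73 in LPS cells, 6.65 in LA cells and 5.79 in medium. All 3 had both LA arrays above both others, but for S100a8 LPS lay within 0.06 log2 units of medium, while Padi4 and Retnlg lay below medium by 0.72 and 0.85. Padi4 was 3.27-fold higher in LPS+LA cells than in LPS cells, Retnlg 2.74-fold and S100a8 2.24-fold. Padi4 was also 2.04-fold higher in LA cells than in medium, where its second probe gave 0.61 log2 units. S100a9, the other calprotectin subunit and the neighbour of S100a8 on chromosome 3, had 8.35 in LPS+LA cells, 8.19 in LPS cells, 8.44 in LA cells and 7.96 in medium, a narrower span than that of S100a8.

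Fpr1 and Fpr2, receptors for bacterial formyl peptides that are neighbours on chromosome 17, went the other way. Fpr1 had 1.81 in LPS+LA cells, 3.31 in LPS cells, 1.66 in LA cells and 1.25 in medium. Fpr2 had 3.62 in LPS+LA cells, 5.68 in LPS cells, 3.79 in LA cells and 3.80 in medium. The LPS array stood high and the other 3 lay together, within 0.18 log2 units of each other for Fpr2 and 0.55 for Fpr1. LPS cells had Fpr1 4.17-fold higher than medium and Fpr2 3.68-fold higher. LPS+LA cells had Fpr2 4.17-fold lower than LPS cells and Fpr1 2.84-fold lower, and a second Fpr2 probe gave -2.10 log2 units.

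The promoters of Cxcr2 and Fpr2 are shown as those of the highest and the lowest gene in LPS+LA cells against LPS cells. They lie at chr1:74153744-74154043 (Cxcr2, + strand) and chr17:17887574-17887873 (Fpr2, + strand), with the same capitals as above.
Cxcr2: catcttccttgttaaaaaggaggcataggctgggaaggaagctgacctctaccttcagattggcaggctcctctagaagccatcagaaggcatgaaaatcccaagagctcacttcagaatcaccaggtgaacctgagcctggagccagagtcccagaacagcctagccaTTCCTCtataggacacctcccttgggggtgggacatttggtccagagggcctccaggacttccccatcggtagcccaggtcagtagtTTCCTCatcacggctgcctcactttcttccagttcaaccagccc
Fpr2: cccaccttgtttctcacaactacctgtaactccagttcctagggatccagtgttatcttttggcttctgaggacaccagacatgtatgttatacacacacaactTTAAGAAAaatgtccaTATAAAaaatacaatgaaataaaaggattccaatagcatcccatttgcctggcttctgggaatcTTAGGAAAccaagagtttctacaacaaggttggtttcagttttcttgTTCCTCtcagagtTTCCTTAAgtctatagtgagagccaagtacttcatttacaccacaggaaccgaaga
Cxcr2 holds GAGGAA at 81 bases before and 7 after the start, on the other strand, and no TTNNGNAA or TATAAA. Fpr2 holds TTNNGNAA at 146 and 66 bases before the start and on the other strand at 6, GAGGAA on the other strand at 19 and TATAAA at 130.

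The remaining mature neutrophil genes stayed within 2-fold in every comparison by their brightest probe, although a second probe of Trem1 did not. Ly6g, the surface protein used to identify mouse neutrophils, had -0.73 in LPS+LA cells, -0.70 in LPS cells, -0.69 in LA cells and -0.78 in medium, a span below the software error, and it belongs to a family of close copies whose transcripts a probe may share. Csf3r, the receptor for the growth factor G-CSF, spanned 7.88 in LA cells to 8.24 in LPS cells. Anxa1, a lipid-binding protein, spanned 4.31 in LPS+LA cells to 4.56 in LPS cells, and its probe printed 10 times differed by -0.34 log2 units in LPS+LA against LPS, with an SD between spots of 0.056 and 0.050.

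Trem1, a receptor that amplifies TLR signals, had 6.84 in LPS+LA cells, 7.25 in LPS cells, 6.96 in LA cells and 6.90 in medium. Its dimmer second probe disagreed, at 1.07 log2 units in LPS+LA against LPS, 1.18 in LA against medium and 1.18 in LPS+LA against medium, where the brighter probe gave -0.41, 0.07 and -0.06. Mcemp1, a membrane protein first described in mast cells, had 4.99 in LPS+LA cells, 4.60 in LPS cells, 4.90 in LA cells and 5.16 in medium, highest in medium, although quantile normalization and the authors' deposited values put LPS+LA above medium by 0.12 and 0.02. Trem3, a relative of Trem1 and its neighbour on chromosome 17, had -2.75 in LPS+LA cells, -2.52 in LPS cells, -3.06 in LA cells and -3.44 in medium, with the widest software error of the 32 genes at 0.341.

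The LA differences with and without LPS come from separate arrays and can be set side by side. Both LA arrays lay above both arrays without LA for 22 of the 32 genes, against 29.0% of all genes on all 4 arrays, and below both for 2 (Fpr2 and Anxa1), against 26.9%; the last count was 0 to 4 over the settings, and second probes of Fpr2 and Anxa1 did not show that order. These 22 were all 4 primary granule genes, all 3 precursor genes, 9 of 11 secondary granule genes and 6 of 14 mature neutrophil genes. Under the 8 alternative settings the count of 22 ranged from 21 to 26, with 23.1% to 49.4% of all genes. Across the 32 genes, the LA difference with LPS and that without LPS had a Pearson r of 0.68 and a Spearman rho of 0.71, against 0.50 and 0.47 across all genes; these are correlations across genes of 4 arrays on 1 slide, and genes are not replicates. The difference with LPS was larger by at least 1 log2 unit for 4 genes (Elane, Retnlg, Cxcr2 and Mmp9; 8.97% of all genes) and smaller by as much for 2 (Fpr1 and Fpr2; 9.70% of all genes), shares near the background.

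**Figure D3:**
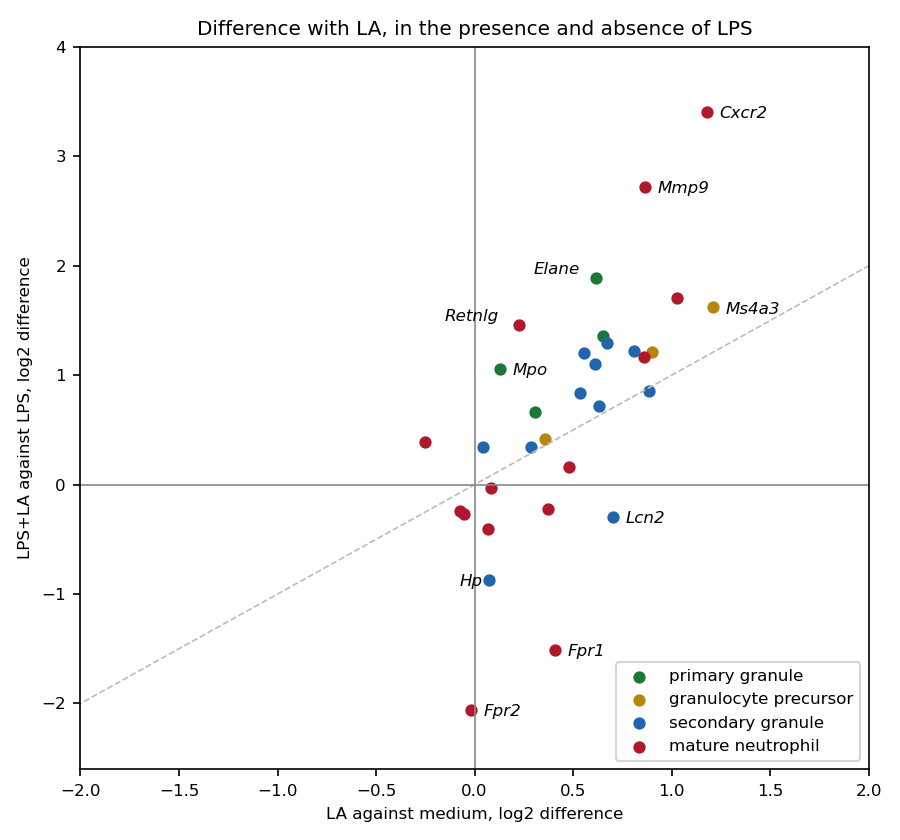
LA difference with LPS (LPS+LA minus LPS, vertical axis, log2 units) against the LA difference without LPS (LA minus medium, horizontal axis, log2 units), 1 point per measured neutrophil gene, coloured by gene set, with a dashed line where both are equal. In 22 genes both differences lie above 0, with Cxcr2 at 3.41 and 1.18, and Fpr1 has -1.51 and 0.41.

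Genes of related lists, which were not members, were measured for comparison. Among 25 other neutrophil genes, 8 were at least 2-fold higher and 3 at least 2-fold lower in LPS+LA cells against LPS cells (11.5% and 12.5% of all genes, the second near the share of the list), with a median of 0.78 log2 units. The highest were Ltb4r1 (1.85), the leukotriene B4 receptor, and Lrg1 (1.56), and the lowest were Slpi (-2.71), a protease inhibitor, and Il1r2 (-2.15), the decoy receptor for interleukin 1. The Stfa genes of this list are close copies of each other, and their values are uncertain.

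Markers of other cells moved with some of these comparisons, and their part in the results was not tested. In LPS+LA against LPS, 11.5% of all genes were at least 2-fold higher and 12.5% at least 2-fold lower. For LPS+LA against LPS, the median of the dendritic cell markers was -1.33 log2 units (1 of 16 at least 2-fold higher and 9 lower). The lowest were Cd83 (-3.70) and Ccl17 (-2.77), which were higher in LPS cells than in medium by 1.86 and 3.05. The highest were Cd209a (1.07) and Ciita (0.999). The summed linear level of the dendritic cell markers was 218 in LPS+LA cells, 366 in LPS cells, 232 in LA cells and 302 in medium. The macrophage and monocyte list had a median of -0.48 (1 of 18 higher, 4 lower). The lowest were Marco (-4.21) and Fcgr1 (-2.83), which were higher in LPS cells than in medium by 2.56 and 2.40. The highest were Ccr2 (2.64) and Lyz2 (0.67). The sum of this list was 322 in LPS+LA cells, 434 in LPS cells, 360 in LA cells and 454 in medium. The list for mast cells, basophils and eosinophils had a median of 0.38 (0 of 18 higher, 1 lower), and their sum was 145 in LPS+LA cells, 124 in LPS cells, 138 in LA cells and 75.9 in medium. In LA cells against medium 4 of 18 genes of this last list passed 2-fold upward (3.12% of all genes) and 0 downward (3.33%), and its median was 0.61. Its highest genes were Epx, eosinophil peroxidase, at 1.74 and Tpsb2, a mast cell tryptase, at 1.25. Its lowest were Hdc (-0.40) and Ccr3 (-0.20). The cell division genes had a median of 0.35 in LPS+LA against LPS, with 21 of 26 above 0 (50.2% of all genes). Of the 26, 3 were at least 2-fold higher, the same share as the 11.5% of all genes, and 0 were lower (12.5% of all genes). Their summed level was 127 in LPS+LA cells, 128 in LPS cells, 126 in LA cells and 124 in medium. All these sums are weighted to the brightest probes of a list. These were Cd74 among the dendritic cell markers and Pcna among the cell division genes, which differed by 0.02 and -0.75 log2 units in LPS+LA against LPS.

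**Figure D4:**
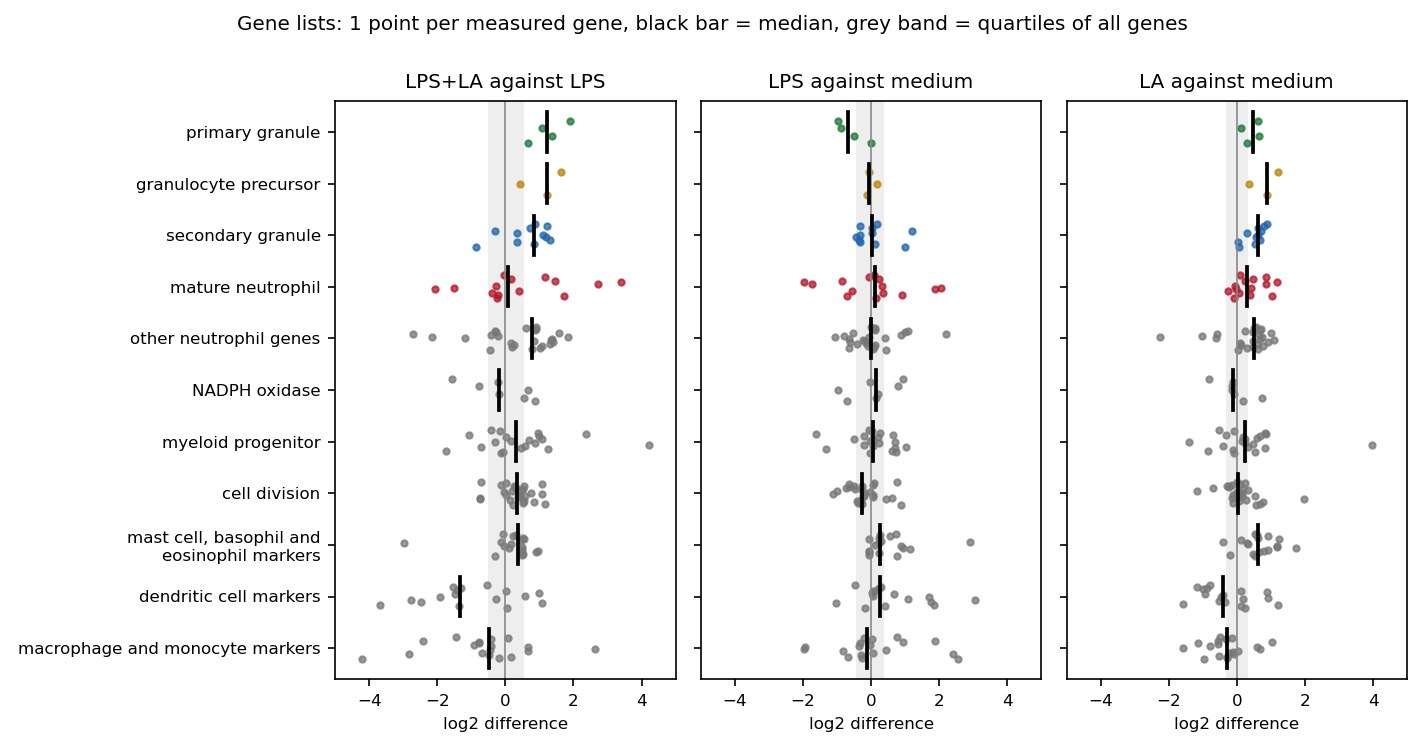
Log2 difference of each measured gene of the lists in LPS+LA against LPS, LPS against medium and LA against medium, 1 point per gene, with a black bar at the median of each list and a grey band for the quartiles of all genes. In LPS+LA against LPS the primary granule and precursor sets have medians of 1.21 and the dendritic cell markers of -1.33.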

How the data were processed

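The deposited intensity values are linear, background-subtracted processed signals, made per the file headers with Agilent Feature Extraction 12.0.3.1 (the submitters' processing notes give 11.5.1.1), not scaled between arrays. The 4 arrays were on 1 slide with 1 scan time. Outlier spots and controls were left out, and levels were log2 of the signal relative to each array's 75th percentile, with spots of a probe averaged. Of 56605 probes, 33767 matched 1 symbol of a RefSeq table (GRCm38.p6) by transcript identifier and 22838 matched none; the headers name mm9, and no probe coordinate was used. A gene was taken by its brightest probe, and genes counted in a comparison when well above background on both arrays. With 1 array per group no test was made.

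The authors also deposited a table of 31529 intensity values, each the processed signal multiplied by a factor that is the same for a whole array (9.30 for LPS+LA, 5.82 for LPS, 8.38 for LA and 6.67 for medium). Its column medians were 1189 for LPS+LA, 873 for LPS, 1164 for LA and 1038 for medium. Its values are linear and not centred.

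Python 3.11.15, numpy 2.4.6, pandas 2.3.3, scipy 1.17.1 and matplotlib 3.10.9 were used, with R 4.3.3 and limma 3.58.1 for quantile normalization and normexp (offset 50), which was run on the median spot signal in place of the planned mean signal, a column the array files lack. The differences and counts were tested on simulated data. The members and lists were chosen with earlier results of these data known. All members are named, with defining markers of other cells. The 2 highest and 2 lowest genes of the other lists are named for some lists and comparisons, but not for the cell division and NADPH oxidase genes. Cxcl1, Cxcl2, Cxcl3, Cxcl5 and Xcr1 were chosen after their values were seen. Motifs were searched on both strands of the RefSeq windows. Protein sequences were not used.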

Additional observations from a re-analysis of the deposited data

Results flagged for a closer look

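For Fpr1, the formyl peptide receptor, LA went opposite ways with and without LPS: the difference was -1.51 log2 units in LPS+LA cells against LPS cells and 0.41 in LA cells against medium. For Mcemp1 it was 0.39 in LPS+LA cells against LPS cells and -0.25 in LA cells against medium. These values exceed the median SD between probes of a gene, but for LA against medium Mcemp1 does so narrowly (-0.25 against an SD of 0.24) and ran from -0.32 to -0.01 over the settings, inside that SD at the end near 0. For LPS+LA against LPS, Mcemp1 ran from 0.28 to 0.94 over the settings, and its low end lay under the SD of 0.31 for that comparison. Each value rests on 1 array per group, and the difference between them was not tested.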

How the results depend on the processing

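No gene at least 2-fold apart changed sign under the 8 alternatives, while the median of LPS against medium (-0.04) was 0.02 under median scaling. No paired analysis was possible because each group had 1 array, and for the same reason no array could be left out. In LPS+LA against LPS, 14 genes were higher and 2 lower, and the alternatives gave 10 (normexp, 4.65% of all genes) to 18 (quantile normalization, 12.6%, and the authors' values) higher and 2 lower; the authors' values placed 22.7% of all genes higher and 6.90% lower. Its median was 1.18 under quantile normalization and 1.20 with the authors' values, whose scaling moved the median of all genes by 0.43. Under all 9 settings 10 genes (Elane, Ms4a3, Cebpe, Ltf, Pglyrp1, S100a8, Retnlg, Cxcr2, Mmp9, Padi4) stayed at least 2-fold higher, and Fpr1 and Fpr2 lower. In LPS against medium, the count of lower genes was 5 with the percentile over detected probes (11.4%), 4 under quantile normalization (7.49%), 1 under normexp (2.34%) and 5 with the authors' values, and that of higher genes was 2 under quantile normalization (7.09%) and 2 with the authors' values, whose median was -0.28, with 5.54% of all genes higher and 12.8% lower. In LA against medium, the higher genes numbered 6 under quantile normalization (3.04% of all genes), 0 under normexp (0.502%) and 7 with the authors' values (4.24%). In LPS+LA against medium they numbered 11 with the percentile over detected probes (4.02%), 12 under quantile normalization (3.15%), 3 under normexp (0.558%) and 13 with the authors' values (4.59%). The causes were not tested. The precision is limited by 1 array per group, and spot errors leave out labelling, culture and animal.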

Other observations

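The 7 genes of the NADPH oxidase, which makes the superoxide of the respiratory burst, did not share the pattern of the granule genes. Their median in LPS+LA cells against LPS cells was -0.18 log2 units, with 0 at least 2-fold higher (11.5% of all genes) and 1 lower (12.5%). Cybb, its catalytic subunit, had a level of 4.17 in LPS+LA cells, 5.74 in LPS cells, 3.99 in LA cells and 4.81 in medium. The myeloid progenitor list had a median of 0.31 log2 units in LPS+LA cells against LPS cells, with 12 of 20 genes above 0 (50.2% of all genes). Of these 20, 4 were at least 2-fold higher (11.5% of all genes) and 2 lower (12.5%). The lowest were Ctla2a (-1.74) and Cebpb (-1.06), and the highest were Egr1 and Cebpa. Cebpa, the C/EBP factor required to enter the granulocyte lineage, had 3.57 in LPS+LA cells, 1.22 in LPS cells, 3.67 in LA cells and 2.83 in medium. Egr1, an immediate early transcription factor, had 6.06 in LPS+LA cells, 1.85 in LPS cells, 6.04 in LA cells and 2.06 in medium, a difference of 4.22 log2 units in LPS+LA against LPS and of 3.98 in LA against medium.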
